A study of Mus musculus with 6 samples.

Results

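The genes described here encode FGF ligands (Fgf4, Fgf5, Fgf8, and Fgf15), FGF receptors (Fgfr1 and Fgfr2), and genes that FGF-ERK signalling switches on, most of which act back on it (Spry2, Spry4, Dusp6, and Etv4). They were chosen by symbol, with earlier results of these data known. Each symbol matched 1 row of the count table, so that they make up 10 of its 52636 genes. Gene expression was measured by RNA sequencing in embryoid bodies (EBs), aggregates in which mouse embryonic stem cells begin to form the germ layers once the cytokine LIF is withdrawn. All cells were of the E14 line. The WT group comprised 3 EB samples of the parental line, and the Tnfaip2-/- group comprised 3 EB samples of a single CRISPR-Cas9 clone with a premature stop codon in exon 2 of Tnfaip2. EBs of both groups formed for 3 days in hanging drops of ES cell medium with LIF and were then plated on gelatin for 3 days of differentiation in fibroblast medium. The sample labels list serum replacement and the study's methods fetal bovine serum in this medium, and neither lists LIF. Each genotype is represented by 1 line, so that replicates show at most how much cultures vary, not how much clones vary. The samples held between 21765931 and 23804489 counts in total. Expression is given as CPM, the counts of a gene in 1000000 counts of its sample, with sample totals taken over the tested genes and scaled by TMM, and a floor of 3 counts corresponds to between 0.128 and 0.137 CPM. Tnfaip2 (ENSMUSG00000021281, chromosome 12, 111442469 to 111455018, GRCm38) had 7, 4, and 7 counts in the WT samples, against 0, 2, and 2 in the Tnfaip2-/- samples. It was lower in each Tnfaip2-/- sample but near the floor in both groups, and it did not reach the expression filter.

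FGFs are secreted proteins that bind receptor tyrosine kinases together with heparan sulfate. The activated receptor recruits adaptors such as FRS2, GRB2, and GAB1, which start the cascade of RAS, RAF, MEK, and ERK kinases. ERK then switches on ETS transcription factors and a set of inhibitors, the Sprouty and Spred proteins and the DUSP phosphatases, so that the mRNAs of these feedback genes are commonly read as a record of recent ERK activity. In the mouse, FGF4 and ERK move pluripotent cells out of the naive state, and FGF8 is needed for cells to leave the primitive streak during gastrulation.

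Of the 10 genes, 9 were lower and 1, Fgfr2, was higher in Tnfaip2-/- EBs at an adjusted p below 0.05 (edgeR quasi-likelihood test with Benjamini-Hochberg adjustment, written below as BH). Of all 17849 genes tested, 67.7% passed this threshold, 34.0% as higher and 33.7% as lower. A change of at least 2-fold was found for 5 of the 10 genes, 1 higher and 4 lower, whereas 12.0% of all tested genes changed as much, 7.46% as higher and 4.51% as lower. The samples of the groups did not overlap for any of the 10 genes, as was the case for 69.4% of all tested genes. The median log2 fold change was -0.64 for the 10 genes and 0.0030 for all tested genes. Since the 10 genes were chosen with earlier results of these data known, these shares describe them and do not test the pathway. All 10 genes passed the expression filter. The plot of log2 fold changes against all tested genes shows that the size of the change was uneven. Fgf8, Dusp6, Etv4, and Fgfr2 each changed by more than at least 95.1% of all tested genes did, whereas the changes of Fgfr1 and Spry4 exceeded those of 55.7% and 42.9%.

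**Figure D1:**
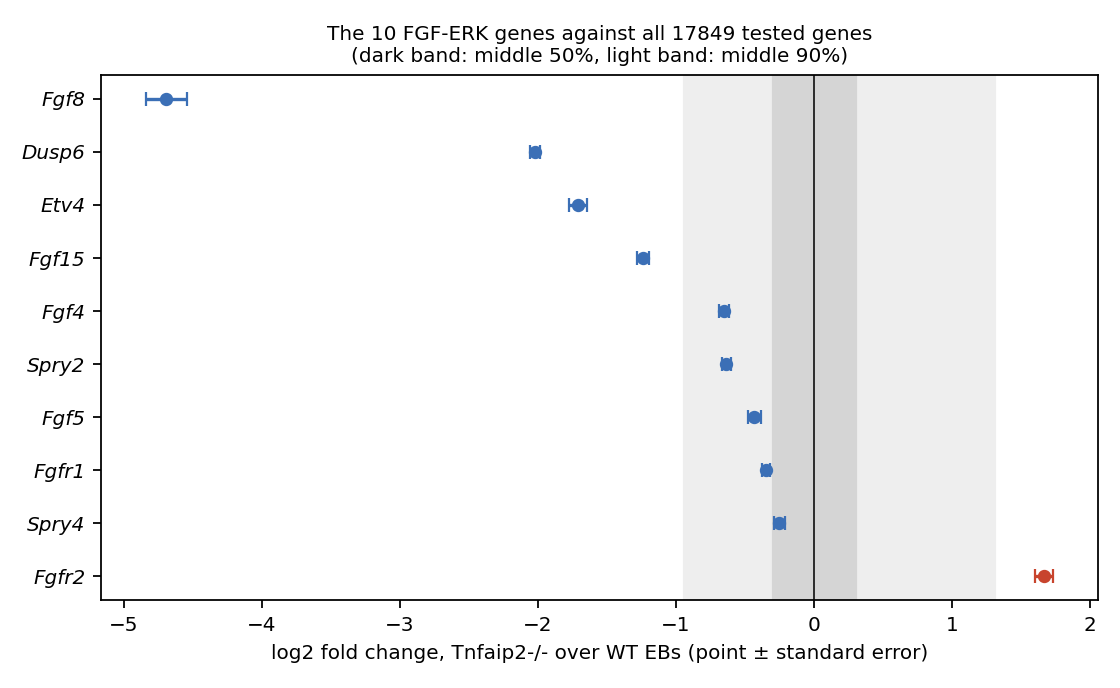
Log2 fold change of each of the 10 FGF-ERK genes in Tnfaip2-/- over WT EBs (points, with standard error), on a horizontal axis that spans all their values. The dark band holds the middle 50% of all 17849 tested genes (-0.30 to 0.31) and the light band the middle 90% (-0.94 to 1.31). Fgf8 lies far to the left at -4.69, and Fgfr2 is the gene to the right of 0, at 1.67.

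The labelled cell type, embryonic stem cells, was checked on marker genes, and general pluripotency genes were abundant in both groups. The 8 genes of this list summed to 2736, 2724, and 2730 CPM in the WT samples and to 2193, 2200, and 2216 CPM in the Tnfaip2-/- samples. Pou5f1, which encodes OCT4, was the most abundant of them. Of the 8 genes, 2 were higher and 5 lower in Tnfaip2-/- EBs at an adjusted p below 0.05. Of 11 genes of naive pluripotency, 6 were higher and 5 lower, and the sums were 910, 906, and 889 CPM in the WT samples against 1145, 1164, and 1180 CPM in the Tnfaip2-/- samples. Zfp42 was the most abundant of these in Tnfaip2-/- EBs, while in WT EBs the CPM of Zfp42 and Esrrb overlapped between samples. By at least 2-fold, 2 naive genes were higher (Dppa3 and Prdm14) and 4 lower (Klf4, Klf5, Tbx3, and Nr0b1). The sum therefore does not describe each gene. Markers of fibroblasts were scarce, with sums of 12.8, 15.2, and 12.3 CPM in the WT samples and 7.13, 8.26, and 8.48 CPM in the Tnfaip2-/- samples. Thy1 had the highest CPM among the 9 fibroblast genes, Lum was at or under the floor in all 6 samples, and 4 of the 6 tested genes were lower. The part of these cell states in the FGF-ERK results was not tested. In bulk samples, fewer cells of a type and less RNA per cell cannot be told apart.

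Among the ligands, Fgf8 showed the largest difference. Fgf8 (ENSMUSG00000025219, chromosome 19, 45736798 to 45742915, reverse strand) encodes the FGF of the primitive streak. It had 325, 342, and 324 counts in the WT samples, against 14, 12, and 11 in the Tnfaip2-/- samples. All WT samples were high and all Tnfaip2-/- samples low but above the floor, and the groups lay far apart. Fgf8 fell from 14.5 ± 0.750 to 0.553 ± 0.0603 CPM (mean ± SD, n = 3), 25.9-fold lower, with a log2 fold change of -4.69 ± 0.146 (SE, BH-adjusted p = 1.77e-30, edgeR quasi-likelihood test). By this value it stood at rank 16 of all tested genes, counted from the most strongly lower gene.

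Markers of the primitive streak and nascent mesoderm moved with Fgf8. Of the 12 genes of this list, 11 were tested and all 11 were lower in Tnfaip2-/- EBs at an adjusted p below 0.05. Their summed level was 91.0, 91.0, and 90.5 CPM in the WT samples and 22.6, 19.8, and 24.3 CPM in the Tnfaip2-/- samples. By CPM, the most abundant of them was T in WT EBs and Eomes in Tnfaip2-/- EBs. T, which encodes Brachyury and defines the streak, had 774, 732, and 866 counts in the WT samples, against 5, 3, and 1 in the Tnfaip2-/- samples, and Msgn1 had 9, 8, and 3 counts against 0 in each Tnfaip2-/- sample. The part of these markers in the Fgf8 result was not tested. The genes whose pattern over the 6 samples was most like that of Fgf8 were Pcdh7, Wnt8a, and Evx1, with root mean square differences of 0.163, 0.357, and 0.380 on the log2 scale after subtraction of each gene's WT mean and with a prior count of 2. Pcdh7, which encodes a protocadherin, had 46, 40, and 53 counts in the WT samples and 0 in each Tnfaip2-/- sample. Its closeness to Fgf8 therefore depends on the prior count, and the size of its fold change has no measured upper limit. Wnt8a, a secreted WNT ligand, had 266, 265, and 324 counts in the WT samples, against 9, 6, and 6 in the Tnfaip2-/- samples. Evx1, a homeobox gene, belongs to the streak list.

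Fgf4 (ENSMUSG00000050917, chromosome 7, 144847367 to 144865243, forward strand) encodes the FGF that pluripotent cells themselves secrete. It had 2386, 2323, and 2521 counts in the WT samples, against 1549, 1477, and 1465 in the Tnfaip2-/- samples. The Tnfaip2-/- samples were close to each other and all below the WT samples. Fgf4 fell from 105 ± 1.78 to 67.2 ± 1.07 CPM (mean ± SD, n = 3), with a log2 fold change of -0.65 ± 0.0341 (SE, BH-adjusted p = 1.03e-21, edgeR quasi-likelihood test).

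Fgf15 (ENSMUSG00000031073, chromosome 7, 144896531 to 144900953, forward strand) encodes the mouse counterpart of human FGF19, an FGF of the developing neural tube and the intestine. It had 1424, 1413, and 1568 counts in the WT samples, against 616, 593, and 609 in the Tnfaip2-/- samples. Each Tnfaip2-/- sample was below each WT sample by more than the range of either group. The log2 fold change of Fgf15 was -1.24 ± 0.0445 (SE, BH-adjusted p = 4.77e-28, edgeR quasi-likelihood test), from 64.2 ± 2.18 to 27.2 ± 0.213 CPM (mean ± SD, n = 3). Its counts carry some uncertainty, since the antisense gene Gm26793 overlaps 24.9% of the exon bases of Fgf15. Of the 51-base windows of its transcripts, 21.2% also occur in other genes on either strand. Gm26793 is among those genes, so that the percentages partly describe the same overlap. Gm26793 itself was at 0.713 CPM in WT EBs and 0.346 CPM in Tnfaip2-/- EBs. Markers of neural ectoderm moved in the same direction as Fgf15. Of the 8 genes in that list, 5 were tested and 5 were lower, with sums of 109, 109, and 102 CPM in the WT samples and 47.7, 45.8, and 47.0 CPM in the Tnfaip2-/- samples. Sox1 was the most abundant of them, Neurog2 and Olig2 were at or under the floor in all 6 samples, and the part of these markers in the Fgf15 result was not tested.

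Fgf5 (ENSMUSG00000029337, chromosome 5, 98254184 to 98277030, forward strand) marks the epiblast after implantation. It had 842, 872, and 865 counts in the WT samples, against 637, 624, and 604 in the Tnfaip2-/- samples. The groups did not overlap, and the difference was the smallest among the 4 ligands. Fgf5 fell from 37.6 ± 1.14 to 27.9 ± 0.636 CPM (mean ± SD, n = 3), with a log2 fold change of -0.43 ± 0.0488 (SE, BH-adjusted p = 1.17e-10, edgeR quasi-likelihood test). Other genes of the formative and primed epiblast moved in this direction too, and 8 of the 9 genes of this list were lower at an adjusted p below 0.05. They summed to 2215, 2214, and 2200 CPM in the WT samples and to 835, 829, and 835 CPM in the Tnfaip2-/- samples. By CPM, the most abundant of them was Dnmt3a in WT EBs and Otx2 in Tnfaip2-/- EBs. Otx2, the exception, was at 224 ± 2.25 CPM in WT EBs and 223 ± 0.675 CPM in Tnfaip2-/- EBs (BH-adjusted p = 0.786, edgeR quasi-likelihood test). No gene of the list was at 0, and the part of these markers in the Fgf5 result was not tested.

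**Figure D2:**
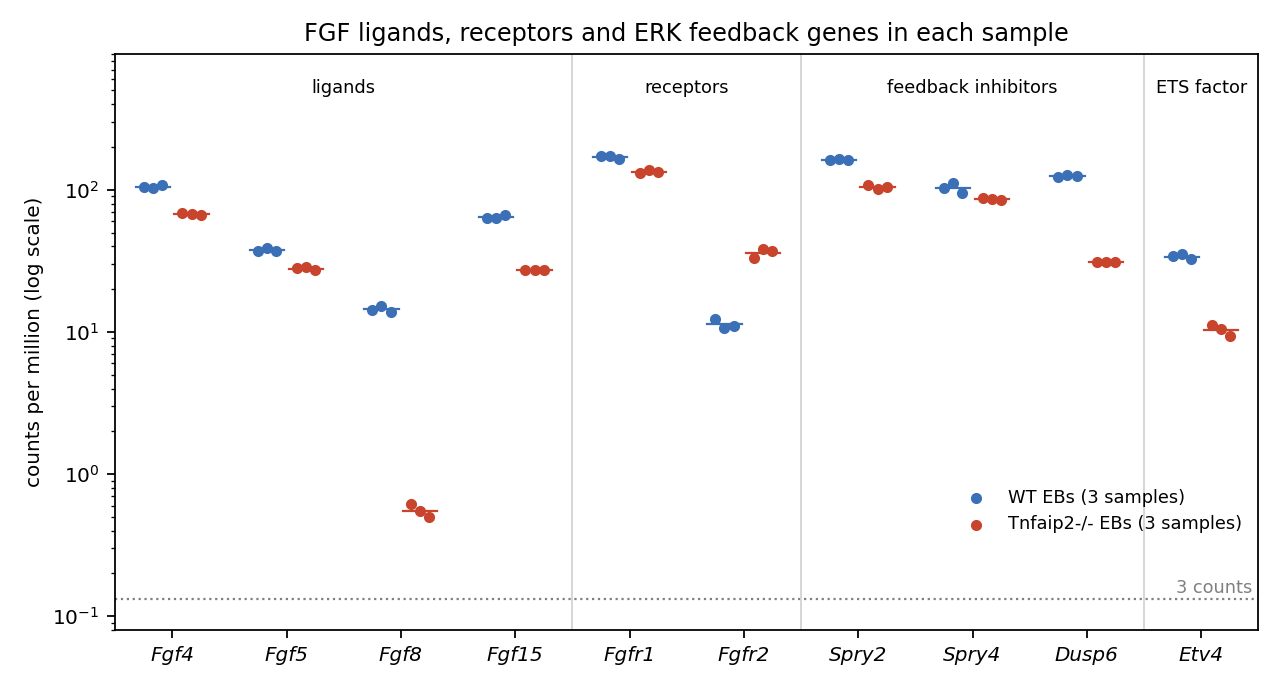
Expression of the 10 genes in each of the 6 EB samples, in CPM on a log axis, with genes along the horizontal axis in the order of their roles. Points are samples (blue, WT; red, Tnfaip2-/-), short lines are group means, and the dotted line marks 3 counts. The red points lie below the blue points for each gene other than Fgfr2, and for Fgf8 they lie near 0.553 CPM.

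Divided by exon length, the levels of the 4 ligands can be compared with each other. In WT EBs the order was Fgf4 at 33.0 ± 0.559, Fgf15 at 21.0 ± 0.713, Fgf5 at 15.0 ± 0.457, and Fgf8 at 10.7 ± 0.555 CPM per kb (mean ± SD, n = 3), and each step was larger than the spread between replicates. In Tnfaip2-/- EBs, Fgf4 remained the highest at 21.0 ± 0.336 CPM per kb. Fgf5 at 11.2 ± 0.254 CPM per kb then stood above Fgf15 at 8.90 ± 0.0695 CPM per kb. Fgf8 came last at 0.410 ± 0.0446 CPM per kb. The level of Fgf15 may be too low, since its full exon length was used although 24.9% of its exon bases overlap Gm26793. Of the 51-base windows of its transcripts, 21.2% also occur in other genes, Gm26793 included, against 0.76% for Fgf5. The order of Fgf5 and Fgf15 in Tnfaip2-/- EBs is therefore uncertain. The level of the 4 ligands together was 79.0, 80.0, and 80.3 CPM per kb in the WT samples and 41.9, 41.8, and 40.9 CPM per kb in the Tnfaip2-/- samples, without overlap. Fgf8 made up 13.4% ± 0.715 of this sum in WT EBs and 0.987% ± 0.0969 in Tnfaip2-/- EBs, while the share of Fgf4 was 41.4% ± 0.676 and 50.7% ± 0.244 (mean ± SD, n = 3).

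**Figure D3:**
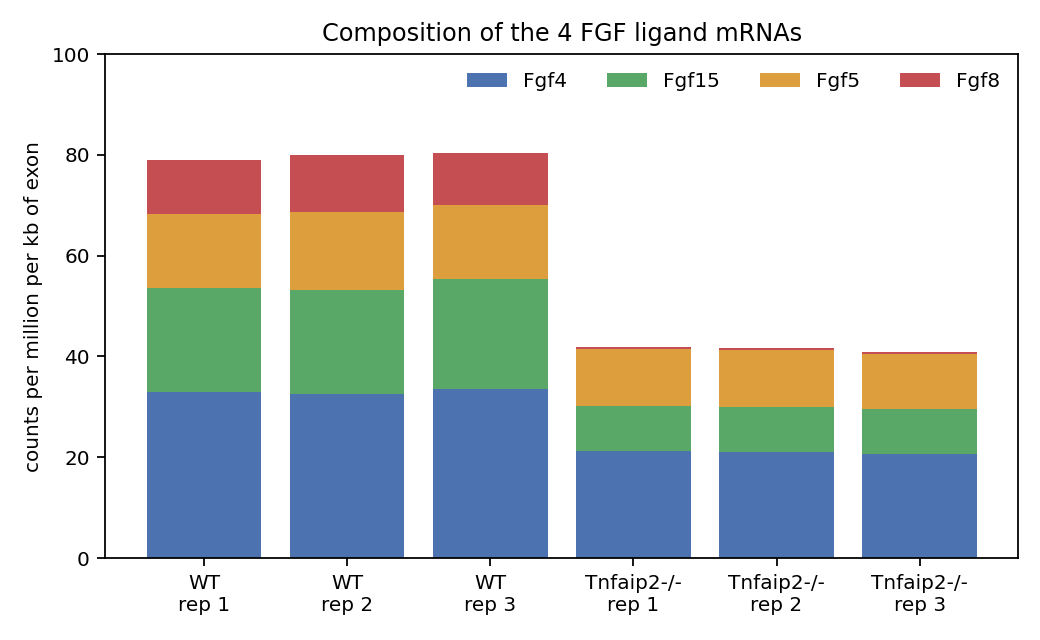
Level of the 4 ligand mRNAs in each sample, in CPM per kb of exon, stacked by gene (horizontal axis: the 3 WT and the 3 Tnfaip2-/- samples). The bars reach between 79.0 and 80.3 in the WT samples and between 40.9 and 41.9 in the Tnfaip2-/- samples, where the segment of Fgf8 is hardly visible.

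Of the 14 remaining secreted FGFs, 6 were at or under the floor in all samples, and 5 passed the expression filter, of which 3 were lower, 1 was higher, and 1 did not pass the threshold. Fgf17, a close relative of Fgf8, had 474, 496, and 449 counts in the WT samples, against 106, 122, and 111 in the Tnfaip2-/- samples. Its groups were as clearly separated as those of Fgf15, with a log2 fold change of -2.03 ± 0.0850 (SE, BH-adjusted p = 2.02e-25, edgeR quasi-likelihood test). Fgf1 and Fgf10 fell with log2 fold changes of -1.15 and -0.69, and Fgf3 rose with a log2 fold change of 0.52, a difference that did not pass the threshold with DESeq2. Fgf18 was at 0.599 ± 0.0623 CPM in WT EBs and at 0.658 ± 0.0640 CPM in Tnfaip2-/- EBs (BH-adjusted p = 0.701, edgeR quasi-likelihood test). Fgf2, which is often added to cultures of epiblast stem cells, had between 4 and 21 counts and was not tested. In the subfamily of Fgf8, Fgf17, and Fgf18, the summed level was 23.5, 25.0, and 22.0 CPM per kb in the WT samples and 3.78, 4.20, and 3.94 CPM per kb in the Tnfaip2-/- samples. Fgf17 was the most abundant of these in Tnfaip2-/- EBs, at 3.01 ± 0.271 CPM per kb, whereas in WT EBs Fgf17 (12.3 ± 0.905 CPM per kb) and Fgf8 (10.7 ± 0.555 CPM per kb) were closer. Of the 4 intracellular FGF homologous factors, which are not secreted, 3 were tested, and Fgf14 was lower (log2 fold change -1.66) and Fgf13 higher (0.37). The call of Fgf13 was lost with DESeq2, and Fgf14 was removed by a filter of 1 CPM in 3 samples.

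The receptors moved in opposite directions. Fgfr1 (ENSMUSG00000031565, chromosome 8, 25513654 to 25575718, forward strand), the main FGF receptor of the epiblast, had 3929, 3866, and 3884 counts in the WT samples, against 2985, 3003, and 2954 in the Tnfaip2-/- samples. The Tnfaip2-/- samples were all lower by a similar amount. Fgfr1 fell from 170.4 ± 4.46 to 134 ± 2.93 CPM (mean ± SD, n = 3), with a log2 fold change of -0.35 ± 0.0296 (SE, BH-adjusted p = 2.16e-14, edgeR quasi-likelihood test). Fgfr2 (ENSMUSG00000030849, chromosome 7, 130162451 to 133123350, reverse strand), in the blastocyst a receptor of primitive endoderm and trophectoderm, had 280, 237, and 258 counts in the WT samples, against 747, 837, and 818 in the Tnfaip2-/- samples. All Tnfaip2-/- samples were above all WT samples. Fgfr2 rose from 11.3 ± 0.929 to 36.0 ± 2.78 CPM (mean ± SD, n = 3), 3.18-fold, with a log2 fold change of 1.67 ± 0.0655 (SE, BH-adjusted p = 1.53e-26, edgeR quasi-likelihood test). The annotated span of Fgfr2 runs into Ctbp2 on the same strand, and 3.04% of its exon bases are shared with that gene. Ctbp2 had a log2 fold change of 0.12, from 150.0 to 163 CPM.

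The levels of the 4 receptor tyrosine kinases were compared per kb of exon. Fgfr1 was the most abundant receptor in both groups, at 17.3 ± 0.451 CPM per kb in WT EBs and 13.6 ± 0.297 CPM per kb in Tnfaip2-/- EBs. Its share of the 4 receptors was 88.5% ± 0.0217 in WT EBs and 75.0% ± 0.504 in Tnfaip2-/- EBs, whereas the share of Fgfr2 was 5.62% ± 0.423 and 19.3% ± 1.02 (mean ± SD, n = 3). In WT EBs the levels of Fgfr2 (1.09 ± 0.0899 CPM per kb) and Fgfr4 (0.973 ± 0.0986 CPM per kb) overlapped between samples, while in Tnfaip2-/- EBs Fgfr2 at 3.48 ± 0.269 CPM per kb stood above Fgfr4 at 0.667 ± 0.0572 CPM per kb. Fgfr3 was the lowest in both groups. The sum of the 4 receptors was 19.8, 19.8, and 18.9 CPM per kb in the WT samples and 17.6, 18.6, and 18.1 CPM per kb in the Tnfaip2-/- samples.

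Markers of the lineages in which Fgfr2 is known were measured beside it. Of 12 genes of primitive and visceral endoderm, 2 were higher and 7 lower in Tnfaip2-/- EBs, with sums of 145, 145, and 141 CPM in the WT samples and 128, 126, and 127 CPM in the Tnfaip2-/- samples. Cubn was the most abundant of these by CPM, none was at 0 in all samples, and the endoderm regulators Gata6 and Gata4 did not pass the threshold (BH-adjusted p = 0.288 and 0.715, edgeR quasi-likelihood test). The higher genes of the list were the endoderm regulators Sox7 and Sox17, with log2 fold changes of 0.64 and 0.45 (BH-adjusted p = 0.00126 and 0.0116, edgeR quasi-likelihood test). The largest changes of the list were decreases, and Afp, Ttr, and Foxa2, with log2 fold changes of -4.17, -1.95, and -1.16, were its 3 genes that changed by at least 2-fold. Of 9 trophoblast genes, 5 were tested, 2 of them higher and 2 lower. The trophoblast sums were 57.0, 52.7, and 55.0 CPM in the WT samples and 202, 198, and 202 CPM in the Tnfaip2-/- samples. In Tnfaip2-/- EBs most of this sum was Tfap2c, a transcription factor that germ cells and naive pluripotent cells also express, which rose from 21.7 ± 1.07 to 171 ± 1.65 CPM (mean ± SD, n = 3). Hand1, a regulator of trophoblast giant cells, was the other higher gene, with 8, 8, and 9 counts in the WT samples, against 22, 21, and 40 in the Tnfaip2-/- samples. Cdx2, listed here with the trophoblast genes, had 42, 37, and 28 counts in the WT samples, against 1, 2, and 0 in the Tnfaip2-/- samples. Its log2 fold change was -4.96, and that of the related Cdx1, in the streak list, was -4.47. Elf5 was at or under the floor in all samples, and Prl3d1 was at 0. The part of these markers in the Fgfr2 result was not tested.

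Of the 10 other receptors and co-receptors, 7 were tested, of which 3 were higher and 3 lower, with a median log2 fold change of 0.26. Fgfbp1, which releases FGFs from the extracellular matrix, rose from 0.864 ± 0.174 to 5.87 ± 0.294 CPM (mean ± SD, n = 3), with a log2 fold change of 2.76. Fgfr3 rose by a log2 fold change of 1.12 and Flrt3, a membrane protein that binds FGF receptors, by 0.51. Fgfrl1, a receptor without a kinase domain, had a log2 fold change of -0.74, and those of Fgfr4 and Fgfbp3 were -0.54 and -0.47, of which that of Fgfbp3 did not pass the threshold without WT replicate 1. Klb, the co-receptor of endocrine FGFs such as FGF15, was at 1.79 ± 0.0634 CPM in WT EBs and at 2.16 ± 0.439 CPM in Tnfaip2-/- EBs (BH-adjusted p = 0.197, edgeR quasi-likelihood test).

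Spry2, Spry4, Dusp6, and Etv4 were all lower in Tnfaip2-/- EBs, but by different amounts. Dusp6 (ENSMUSG00000019960, chromosome 10, 99263231 to 99267489, forward strand) encodes a cytoplasmic phosphatase that removes the activating phosphates from ERK. It had 2795, 2838, and 2950 counts in the WT samples, against 702, 677, and 684 in the Tnfaip2-/- samples. The samples of each group were nearly equal to each other, and the groups lay far apart. Dusp6 fell from 125 ± 1.74 to 30.9 ± 0.0362 CPM (mean ± SD, n = 3), 4.05-fold lower, with a log2 fold change of -2.02 ± 0.0379 (SE, BH-adjusted p = 3.57e-39, edgeR quasi-likelihood test). The genes whose pattern over the 6 samples was most like that of Dusp6 were Miat, a long noncoding RNA, St6gal2, a sialyltransferase, and Dnmt3a, a DNA methyltransferase of the formative list, with root mean square differences of 0.0461, 0.0587, and 0.0806 on the log2 scale.

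Spry2 (ENSMUSG00000022114, chromosome 14, 105891947 to 105896819, reverse strand) encodes a Sprouty protein that dampens signalling between the receptors and RAF. It had 3667, 3664, and 3828 counts in the WT samples, against 2447, 2231, and 2337 in the Tnfaip2-/- samples. All Tnfaip2-/- samples were below all WT samples. Spry2 fell from 163 ± 0.923 to 105 ± 2.94 CPM (mean ± SD, n = 3), with a log2 fold change of -0.63 ± 0.0302 (SE, BH-adjusted p = 2.82e-23, edgeR quasi-likelihood test). Spry4 (ENSMUSG00000024427), its paralogue, had 2330, 2494, and 2222 counts in the WT samples, against 2002, 1888, and 1894 in the Tnfaip2-/- samples. The WT samples of Spry4 were the more scattered, and the lowest of them was still above the highest Tnfaip2-/- sample (94.6 against 88.1 CPM). The log2 fold change of Spry4 was -0.25 ± 0.0400 (SE, BH-adjusted p = 1.23e-06, edgeR quasi-likelihood test), from 103 ± 8.40 to 86.6 ± 1.39 CPM (mean ± SD, n = 3), the smallest change among the 10 genes.

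Since ETS factors act downstream of ERK, the promoters of the genes were searched for CGGAA, a core that many ETS factors bind, on both strands of the 250 bases before the start site. The RefSeq promoter table (GRCm38.p6) held entries for 5 of the 10 genes, namely Fgf4, Fgf5, Fgfr2, Spry2, and Dusp6, and none for Fgf8, Fgf15, Fgfr1, Spry4, or Etv4. The motif occurred 3 times before Dusp6, of which 1 was on the strand of the gene and 2 on the opposite strand, 1 time before Fgf5, on the opposite strand, and not before Fgf4 or Spry2. The entry of Fgfr2 did not end at the start of any of its 27 GENCODE M21 transcripts and was left out of the search results given here. Of all 32851 promoters in the table, 25.2% held it at least 1 time and 7.43% at least 2 times. The windows of Dusp6, Spry2, and Fgf5 are shown 5′ to 3′ on the strand of each gene, with the motif or its reverse complement in capitals. They lie at chr10:99262981-99263230 (forward strand), chr14:105896820-105897069 (reverse strand), and chr5:98253934-98254183 (forward strand), in each case upstream of the transcribed region.
Dusp6: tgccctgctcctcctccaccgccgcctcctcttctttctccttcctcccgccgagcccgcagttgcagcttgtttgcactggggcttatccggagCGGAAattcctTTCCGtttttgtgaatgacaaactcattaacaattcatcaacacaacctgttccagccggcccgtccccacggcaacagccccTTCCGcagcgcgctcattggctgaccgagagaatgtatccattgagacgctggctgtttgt
Spry2: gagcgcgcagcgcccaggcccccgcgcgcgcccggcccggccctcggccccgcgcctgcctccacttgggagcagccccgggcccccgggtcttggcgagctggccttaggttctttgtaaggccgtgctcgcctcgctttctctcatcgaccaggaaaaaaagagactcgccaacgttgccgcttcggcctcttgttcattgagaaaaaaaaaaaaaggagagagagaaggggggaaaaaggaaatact
Fgf5: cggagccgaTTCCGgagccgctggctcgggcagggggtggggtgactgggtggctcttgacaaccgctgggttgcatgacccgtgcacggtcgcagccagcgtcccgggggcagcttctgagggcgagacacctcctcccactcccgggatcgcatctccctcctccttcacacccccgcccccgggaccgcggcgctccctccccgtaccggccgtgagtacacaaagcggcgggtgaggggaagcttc
A match is a description of the sequence and not a measured binding site, and a window without a match says only that these letters are not in it. GGAA after a base other than C was not counted, and the Spry2 window holds it. Whether the motif bears on the change of any gene was not tested. The windows also differed in base composition, with 56.4% G and C before Dusp6, 62.4% before Spry2, and 70.8% before Fgf5, against a median of 52.4% over all promoters. The GC box GGGCGG, which 32.7% of all promoters held on either strand, occurred 2 times before Fgf4 and 1 time before Fgf5, and TATAAA, which 12.4% held, occurred before none of the 4 genes.

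Etv4 (ENSMUSG00000017724, chromosome 11, 101769742 to 101785371, reverse strand) encodes an ETS transcription factor of the PEA3 group, which FGF signalling induces in many embryonic tissues. It had 772, 791, and 760 counts in the WT samples, against 253, 229, and 209 in the Tnfaip2-/- samples. All Tnfaip2-/- samples were low, and the groups were separated by far more than the range within either. Etv4 fell from 33.9 ± 1.49 to 10.3 ± 0.862 CPM (mean ± SD, n = 3), with a log2 fold change of -1.71 ± 0.0644 (SE, BH-adjusted p = 2.98e-27, edgeR quasi-likelihood test).

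The paralogues of the feedback genes and of Etv4 were compared with them per kb of exon. Among the phosphatases selective for ERK, Dusp6 was the most abundant in WT EBs at 40.0 ± 0.554 CPM per kb, ahead of Dusp9 at 19.6 ± 0.120 and Dusp7 at 6.78 ± 0.198 CPM per kb. In Tnfaip2-/- EBs, Dusp9 at 16.9 ± 0.384 CPM per kb was the most abundant, ahead of Dusp6 at 9.86 ± 0.0116 and Dusp7 at 5.68 ± 0.280 CPM per kb. The share of Dusp6 in their sum was 60.2% ± 0.269 in WT EBs and 30.4% ± 0.109 in Tnfaip2-/- EBs. Within the PEA3 group, Etv5 was the most abundant in both groups, at 90.4 ± 0.154 and 77.2 ± 1.36 CPM per kb, and its log2 fold change was -0.23. Etv1 fell by a log2 fold change of -2.04, from 3.12 ± 0.126 to 0.758 ± 0.0859 CPM per kb. The sum of the 3 PEA3 genes was 105, 105, and 104 CPM per kb in the WT samples and 80.1, 81.4, and 82.4 CPM per kb in the Tnfaip2-/- samples, so that the groups differed less in the sum than in Etv4 or Etv1. Among the 7 Sprouty and Spred genes, Spry2 was the most abundant in both groups, at 78.0 ± 0.442 and 50.3 ± 1.41 CPM per kb, and their sum was 149 ± 1.86 CPM per kb in WT EBs and 105 ± 1.93 CPM per kb in Tnfaip2-/- EBs (mean ± SD, n = 3).

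**Figure D4:**
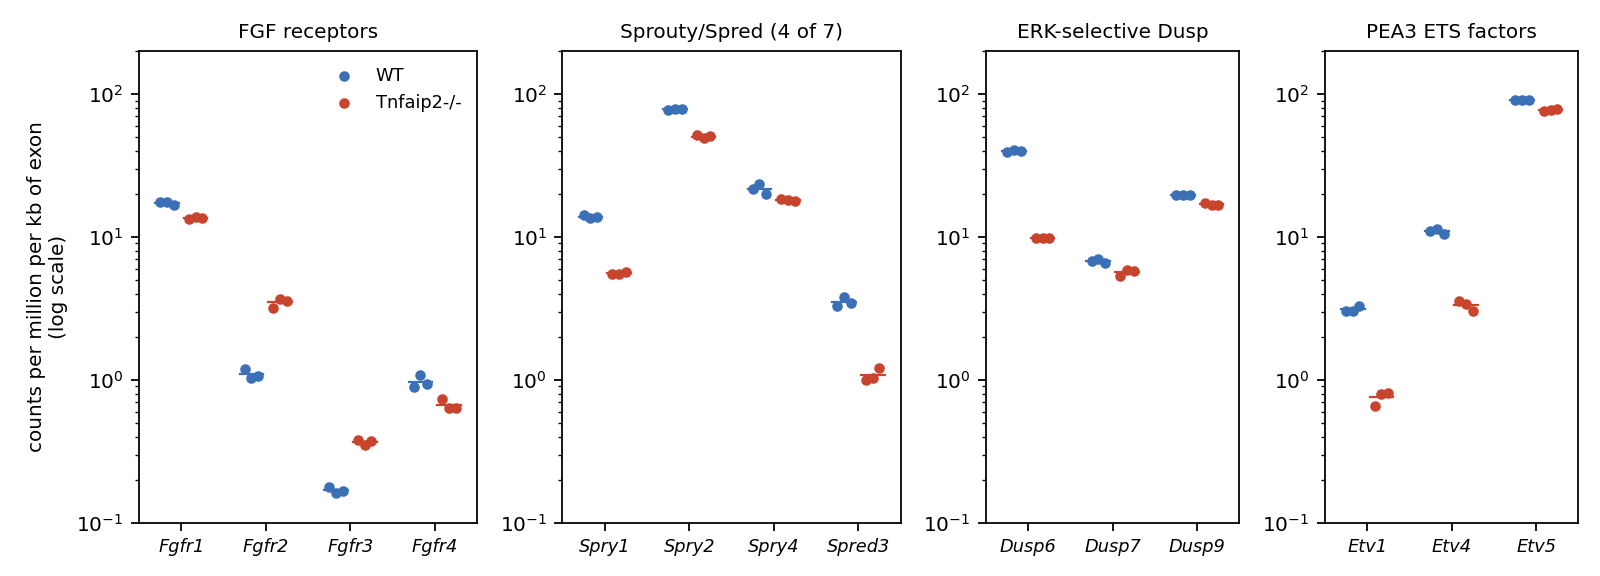
Levels of FGF receptors, 4 of the 7 Sprouty and Spred genes, ERK-selective phosphatases, and PEA3 factors in each sample, in CPM per kb of exon on a log axis (blue, WT; red, Tnfaip2-/-; points, samples; lines, group means). Fgfr2 moves up to 3.48 and Dusp6 down to 9.86, below Dusp9, while Etv5 stays the most abundant PEA3 factor.

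Over all 10 genes, Spry2 had the highest level per kb in both groups. In WT EBs it was followed by Dusp6, Fgf4, Spry4, Fgf15, Fgfr1, Fgf5, Etv4, Fgf8, and Fgfr2. The neighbours Spry4 (21.6 ± 1.77 CPM per kb) and Fgf15 (21.0 ± 0.713 CPM per kb) did not differ beyond their spread, nor did Etv4 (10.9 ± 0.481 CPM per kb) and Fgf8 (10.7 ± 0.555 CPM per kb). In Tnfaip2-/- EBs the order after Spry2 was Fgf4, Spry4, Fgfr1, Fgf5, Dusp6, Fgf15, Fgfr2, Etv4, and Fgf8. There, Fgfr2 (3.48 ± 0.269 CPM per kb) and Etv4 (3.33 ± 0.278 CPM per kb) were within their spread of each other. The place of Fgf15 below Fgf5 and Dusp6 is uncertain, since 21.2% of the 51-base windows of its transcripts also occur in other genes, the antisense Gm26793 included.

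The rest of the pathway was described from 7 further lists with 101 genes. Of these, 85 were tested, and 25 were higher and 46 lower at an adjusted p below 0.05 (edgeR quasi-likelihood test), with a median log2 fold change of -0.20. A change of at least 2-fold was found for 16 of them, 7 higher and 9 lower. Over all tested genes, 34.0% were higher and 33.7% lower, and 7.46% and 4.51% were so by at least 2-fold. The counts of each pathway and marker list, above and below, are to be read against these shares. The plot of pathway genes by list shows that the medians of the lists lay between -0.69 for the other secreted ligands and 0.26 for the other receptors and co-receptors, with genes on both sides of 0 in each list.

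**Figure D5:**
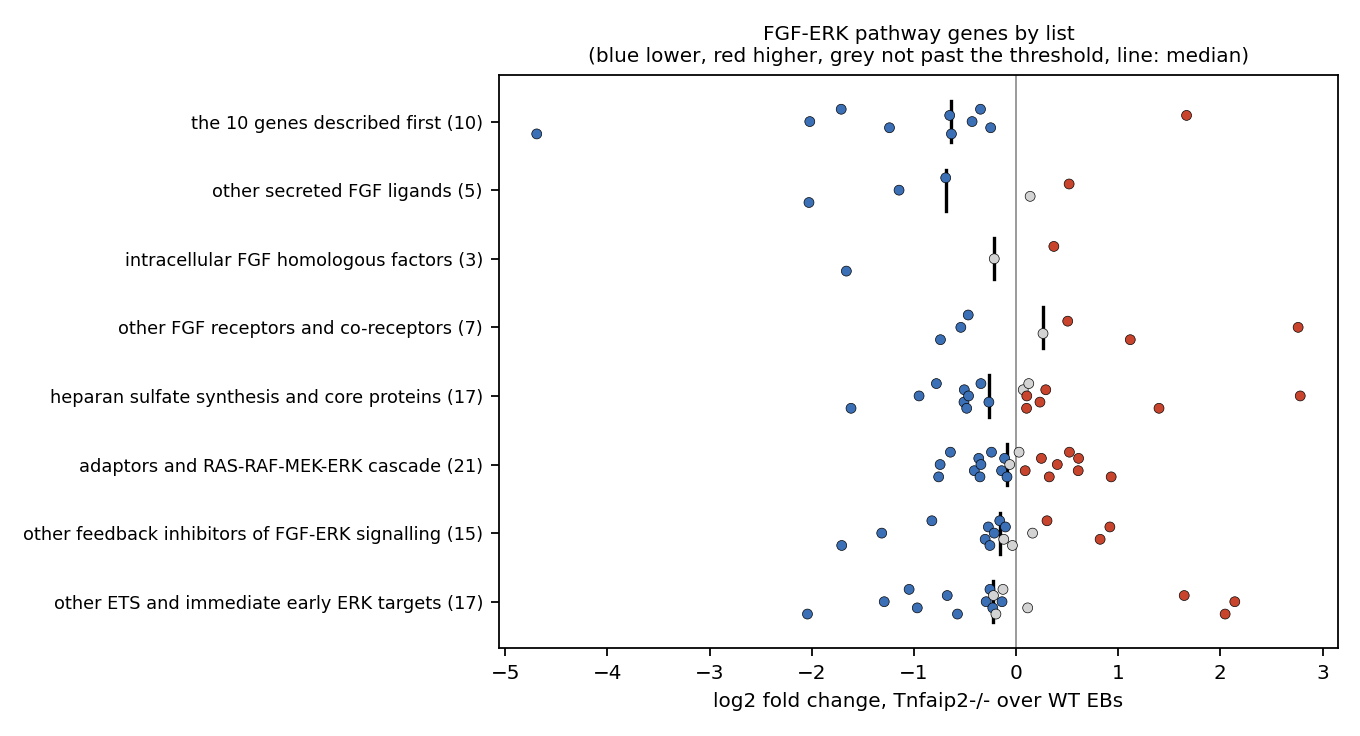
Log2 fold changes in Tnfaip2-/- over WT EBs (horizontal axis) of the tested genes of each list (vertical axis, with the number of tested genes). Points are genes (blue, lower; red, higher; grey, not past the threshold) and vertical lines are medians. The core cascade lies between -0.76 and 0.93, and the heparan sulfate genes reach from -1.62 to 2.78.

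Heparan sulfate chains present FGFs to their receptors, and all 17 genes of their synthesis and core proteins were tested, with 6 higher and 9 lower and a median log2 fold change of -0.27. Sdc4, a heparan sulfate proteoglycan of the cell surface, had 607, 582, and 656 counts in the WT samples, against 4111, 4085, and 4168 in the Tnfaip2-/- samples. The Tnfaip2-/- samples were all high and close to each other, and the log2 fold change was 2.78 ± 0.0375 (SE, BH-adjusted p = 4.4e-45, edgeR quasi-likelihood test). Gpc4, a glypican, rose by a log2 fold change of 1.40. Sulf1, a sulfatase that trims the chains outside the cell, had 2699, 2704, and 2798 counts in the WT samples, against 916, 872, and 820 in the Tnfaip2-/- samples, with a log2 fold change of -1.62 ± 0.0377 (SE, BH-adjusted p = 2.02e-35, edgeR quasi-likelihood test). Its groups were clearly apart, whereas the related Sulf2 rose by a log2 fold change of 0.10. The log2 fold change of Ext1, which polymerizes the chains, was -0.95, and that of Ndst2, which modifies them, was -0.78.

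Of the 21 genes of the adaptors and the core cascade, 8 were higher and 11 lower, none by 2-fold or more. Their median log2 fold change was -0.09, and the median size of the change in either direction was 0.3532, against 0.3022 over all tested genes. Of the MEK genes, Map2k1 rose by a log2 fold change of 0.40 and Map2k2 had one of -0.34. The scaffold gene Ksr1 rose by a log2 fold change of 0.93, and the adaptor genes Grb2 and Frs3 by 0.61 each. The log2 fold changes of Nras, Gab1, and Shc1, which encode a RAS protein and adaptors, were -0.76, -0.74, and -0.64. Exons of Frs3os on the opposite strand overlap 16.3% of the exon bases of Frs3.

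Of 15 other feedback inhibitors, 3 were higher and 9 lower, with a median log2 fold change of -0.16. Spred3, a Sprouty-related inhibitor of RAF activation, fell from 21.9 ± 1.52 to 6.69 ± 0.698 CPM (mean ± SD, n = 3), with a log2 fold change of -1.71. The log2 fold changes of Spry1 and of Il17rd, a membrane inhibitor also known as Sef, were -1.31 and -0.82. Gm42922, which overlaps 24.4% of the exon bases of Spry1 on the opposite strand, had at most 5 counts in a sample. Dusp4, a nuclear phosphatase, moved the other way, with 1500, 1577, and 1505 counts in the WT samples, against 2842, 2683, and 2917 in the Tnfaip2-/- samples. It was high in all Tnfaip2-/- samples, with a log2 fold change of 0.92 ± 0.0359 (SE, BH-adjusted p = 1.33e-26, edgeR quasi-likelihood test). Spry3, with at most 21 counts in a sample, and Errfi1, an inhibitor of the EGF receptor, rose by log2 fold changes of 0.82 and 0.30. The call of Spry3 was lost with DESeq2, with a filter of 1 CPM in 3 samples, without WT replicate 2, and without Tnfaip2-/- replicate 3.

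Among the 20 other ETS and immediate early targets, 17 were tested, of which 3 were higher and 10 lower, with a median log2 fold change of -0.23. The genes with the largest decreases after Etv1 were Myc (log2 fold change -1.29), Srf (-1.05), a partner of ETS factors at immediate early genes, and Ccnd1 (-0.97), which encodes cyclin D1. Exons of LTO1 on the opposite strand overlap 23.4% of the exon bases of Ccnd1, and LTO1 had a log2 fold change of 0.58. Egr1, a zinc finger gene that ERK induces within minutes, had a log2 fold change of -0.67 ± 0.0846 (SE, BH-adjusted p = 1.74e-09, edgeR quasi-likelihood test). Ier3 rose from 11.0 ± 0.404 to 48.4 ± 0.665 CPM, Fosl2 from 1.56 ± 0.319 to 6.46 ± 0.890 CPM, and Jun from 6.19 ± 0.502 to 19.4 ± 0.454 CPM (mean ± SD, n = 3), with log2 fold changes of 2.14, 2.05, and 1.65. These 3 immediate early genes, which stress and cytokine pathways also induce, were the higher genes of the list. Fos, the best known of them, was at 4.58 ± 0.303 CPM in WT EBs and 4.19 ± 0.547 CPM in Tnfaip2-/- EBs (BH-adjusted p = 0.364, edgeR quasi-likelihood test).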

How the data were processed

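Counts per gene were deposited by the authors without normalization. Per the labels and the study's methods, libraries were made with a TruSeq RNA v2 kit, which does not mark the strand, reads were mapped to GRCm38 with TopHat2 2.1.0, and uniquely mapped reads were counted with featureCounts 1.5.0. The strand setting is not given in the sources used here, so that reads of antisense genes cannot be told apart. The table held 52636 genes, and all 6 columns were used.

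The analysis used edgeR 4.0.16 under R 4.3.3, with TMM scaling (factors 0.987 to 1.012) and the filterByExpr filter (minimum count 10, minimum total 15), which kept 17849 genes. Groups were compared by genotype with the robust quasi-likelihood F test, and p-values were adjusted by Benjamini-Hochberg over all tested genes, with a threshold of 0.05. Approximate standard errors (SE) were obtained by dividing the size of each log2 fold change by the root of its F value. CPM used the TMM-scaled totals of the tested genes, and CPM per kb used the union of GENCODE M21 exons, the source of gene positions. The biological coefficient of variation was 0.0215. For genes with a mean of at least 100 counts, the variance between samples of a group was 1.46 to 2.30 times that of counting. Between groups this ratio was 63.3 to 68.3. The p-values rest on this narrow spread within groups. The study calls the replicates biological, and how independent the cultures were is not given in the sources used here. Floors cover counting error only. The procedure was tested on simulated data.

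The 10 genes and all lists were chosen with earlier results of these data known. Named genes were the 10 genes, Tnfaip2, genes of the 7 pathway lists (those past the threshold with the largest changes first), genes of the 8 marker lists, and the 3 genes most like Fgf8 and Dusp6, the ligand and the feedback or target gene with the largest change, by root mean square difference of log2 CPM with a prior count of 2. The paralogue groups, the promoter motifs, and the overlapping genes Gm26793, Ctbp2, Frs3os, Gm42922, and LTO1 were chosen after the values were seen, as were the list genes named below the threshold. Alternatives were RLE normalization, no filter, a filter of 1 CPM in 3 samples, DESeq2 1.42.0, the legacy fit, a replicate block, a test against a fold change of 1.5, and leaving out each sample.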

Additional observations from a re-analysis of the deposited data

How the results depend on the processing

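The 10 genes kept their direction under every alternative, and 125 alternative values of their log2 fold changes also kept their side of the threshold. The 5 values that did not all came from the test against a fold change of 1.5, by its construction a stricter question, under which Fgf4 (adjusted p = 0.0548), Spry2 (0.103), Fgf5, Fgfr1, and Spry4 (1 each) no longer passed. Under that test 2798 of all genes, 5 of the 10 genes, and 24 of the other pathway genes passed, in place of 12084, 10, and 71. Leaving out each sample in turn gave 11537 to 11744 genes, 10 of the 10 genes each time, and 69 to 74 pathway genes. Over the alternatives the log2 fold change of Spry4 lay between -0.32, without WT replicate 3, and -0.19, without WT replicate 2, the widest range in relation to the size of the change. That of Fgf8 lay between -4.78 and -4.63 and that of Dusp6 between -2.04 and -2.01. With the replicate block, 11841 genes, all 10 genes, and 70 pathway genes passed, and of the pathway genes Dusp1 was lost, as it was under most alternatives. DESeq2 kept 64 of the 71 pathway calls and lost Phlda1, Dusp1, Sos1, Sdc3, Fgf3, Fgf13, and Spry3. The numbers do not pair the samples, since the correlations of deviations between same-numbered samples were -0.107, -0.107, and -0.083. At this depth, ligands and co-receptors with a few counts per sample, such as Fgf9 and Kl, could not be compared.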
